A study of Homo sapiens with 8 samples.

Results

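The distal long arm of chromosome 4 was described here from 8 ATAC-seq peak lists. ATAC-seq uses the Tn5 transposase to cut and tag DNA that is not packed into nucleosomes, so a peak marks open chromatin. Overlapping peaks of the lists were joined into 133028 regions, and the 3794 on the distal long arm of chromosome 4 (hg19), from position 115010444 on, were kept as members. The segment was chosen on results of these same lists, among them the regions lost in 697 between 130 and 140 Mb, so the differences between clone and control given here are descriptions and carry no test. The nearest region left out lay at chr4:114991920-114992534 and was called in 7 libraries. The first member lay at chr4:115010444-115010643 and was called in 697 control 1 alone, with a fold over background of 3.4. The last member lay at chr4:190783866-190784095 and was called in clone library 2 of 697 alone.

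The libraries came from 697 and KOPN-8, 2 established lines of B cell precursor acute lymphoblastic leukaemia (B-ALL). In each line 2 control libraries carried an empty sgRNA vector and are labelled SETD2 wild type. The other 2 libraries of each line came from an edited clone labelled as a heterozygous SETD2 knockout, which is BM_B for 697 and BA for KOPN-8. Each line is thus represented by 1 clone and a difference made by the edit cannot be told apart from one that came with picking that clone. The libraries of a group are labelled biological replicates. How their cultures were separated is not stated, so their spread may be partly technical.

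SETD2 is the enzyme that places the trimethyl mark on lysine 36 of histone H3 along transcribed genes. The distal long arm of chromosome 4 is known for gene deserts, long stretches with few genes. One of these deserts surrounds the protocadherin genes PCDH10 and PCDH18, which encode cell adhesion proteins of the developing nervous system. In the RefSeq table for GRCh38 only 3 protein-coding genes, PCDH10, PABPC4L and PCDH18, lie between C4orf33 and SLC7A11, a subunit of the cystine transporter. That table is in another build than the peak lists, so it was used for the order of genes only, and no member was assigned to a gene, exon or intron.

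With both lines merged, the median full window of the segment did not hold fewer regions than the median window of the genome. Regions called in only 1 library are included in these counts. The comparison was not made for each line alone. Regions of the segment were called less evenly. Full windows of 2 Mb held between 41 and 154 members, with a median of 105, against a median of 92 over the 1457 windows of the genome that hold any region. Of the members 40.9% were called in only 1 library, against 30.2% of all regions. The median width was 303 bp against 340 bp. Only 595 members (15.7%) were called in all 8 libraries, while 20.4% of all regions were. Gene density itself was not measured in hg19, so the name gene-poor could not be checked against an annotation. The lists held between 57154 and 76495 peaks. The longer list of each pair in 697 was replicate 2 in both arms, and the part of list length in single-library calls was not tested. Read depth is unknown.

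Members called in each library numbered 1449 and 1796 in the 697 controls against 1514 and 1943 in the 697 clone. In KOPN-8 they numbered 1595 and 1343 in the controls against 1340 and 1346 in the clone. As a share of the list, the segment took 2.62 ± 0.00196% (SD, n = 2) of peaks in the 697 controls against 2.54 ± 0.0794% in the clone, and 2.26 ± 0.103% and 2.10 ± 0.0657% in KOPN-8. The clone of each line thus lay slightly lower, by 0.97 times in 697 and 0.93 times in KOPN-8. In both lines the highest clone share lay below the lowest control share, by a margin smaller than the SD of the clone. Between the lines the gap was larger, with 2.58 ± 0.0648% (SD, n = 4) of peaks in the 697 libraries against 2.18 ± 0.115% in KOPN-8. All 4 libraries of 697 lay above all 4 of KOPN-8. The difference of 0.402 percentage points had p = 0.0556 by a two-sided exact permutation of the lines within arms, which is the smallest p that this design allows and does not pass 0.05. Libraries were the permuted units and there were no replicate lines, so this p does not measure spread between lines.

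A region was counted as lost when both controls of a line called it and neither clone library did, and as gained in the opposite case. In 697, 80 of the 2822 members called in the line (2.83%) were lost, against a background of 1.85% over all 95368 regions of the line, and 107 (3.79%) were gained, against 4.3%. In KOPN-8, 102 of 2191 (4.66%) were lost, against 3.82% of 90207 regions, and 59 (2.69%) were gained, against 3.61%. Since the segment was chosen on lost regions, these shares are given beside the background only. The lists differ in length, and with all of them brought to the length of the shortest, 697 had fewer gained (74) than lost members (90), while KOPN-8 had 51 and 84. Over the remainder of chromosome 4, 2.09% of regions were lost in 697 and 3.88% in KOPN-8. The losses of 697 were uneven along the segment. With the stretch between 130 and 140 Mb set aside, 59 of 2679 members (2.20%) were lost. In KOPN-8 the same step left 91 of 1967 (4.63%). Most lost members were weak, with a median percentile within their own lists of 19.0 in 697 and 21.0 in KOPN-8, close to the 16.4 and 19.5 of all lost regions.

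**Figure D1:**
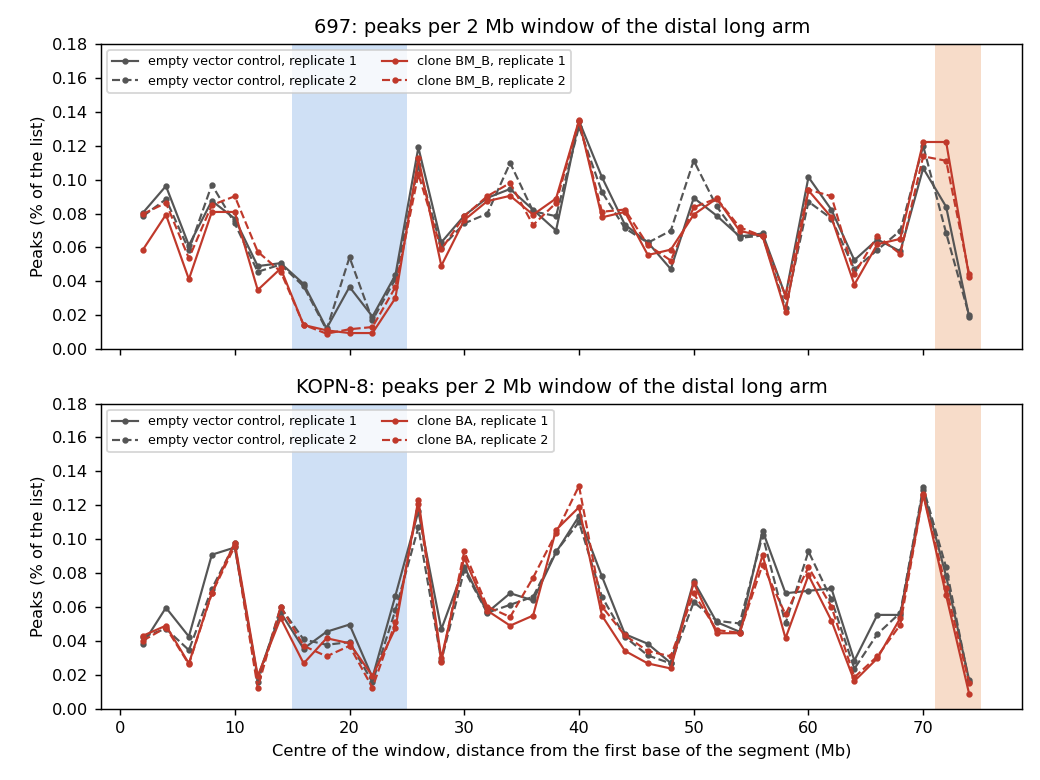
Peaks per 2 Mb window as a percentage of each library's list (y axis) against the distance of the window's centre from the start of the segment (x axis), with controls in grey and clones in red, solid for replicate 1 and dashed for replicate 2. The blue band marks the stretch from 130 to 140 Mb, where both 697 clone lines run below both control lines, and the orange band marks the last windows before the chromosome's end, where both 697 clone lines run above the controls.

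Window by window, both 697 clone libraries held fewer peaks than both controls in 3 of 37 full windows, starting at 130, 134 and 136 Mb. They held more in 4, starting at 152, 158, 186 and 188 Mb. In KOPN-8 both clone libraries held fewer peaks than both controls in 12 windows and more in 2. These are numbers of peaks from lists of different length, and the same was not counted over the windows of the genome. The mean share of peaks in the 697 clone was below that of the controls in 24 windows, with a median ratio of 0.95. The lowest ratio was 0.234, in the window from 134 to 136 Mb, and the highest 2.23, in the window from 188 to 190 Mb. In KOPN-8 the clone's share was lower in 27 windows, with a median ratio of 0.896. Its ratios had a narrower range, from 0.61 between 180 and 182 Mb to 1.13 between 152 and 154 Mb. Across windows the ratios of the 2 lines were weakly related as a description (Spearman's rho 0.259, Pearson's r of log2 ratios 0.0739, 37 windows that share their libraries).

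**Figure D2:**
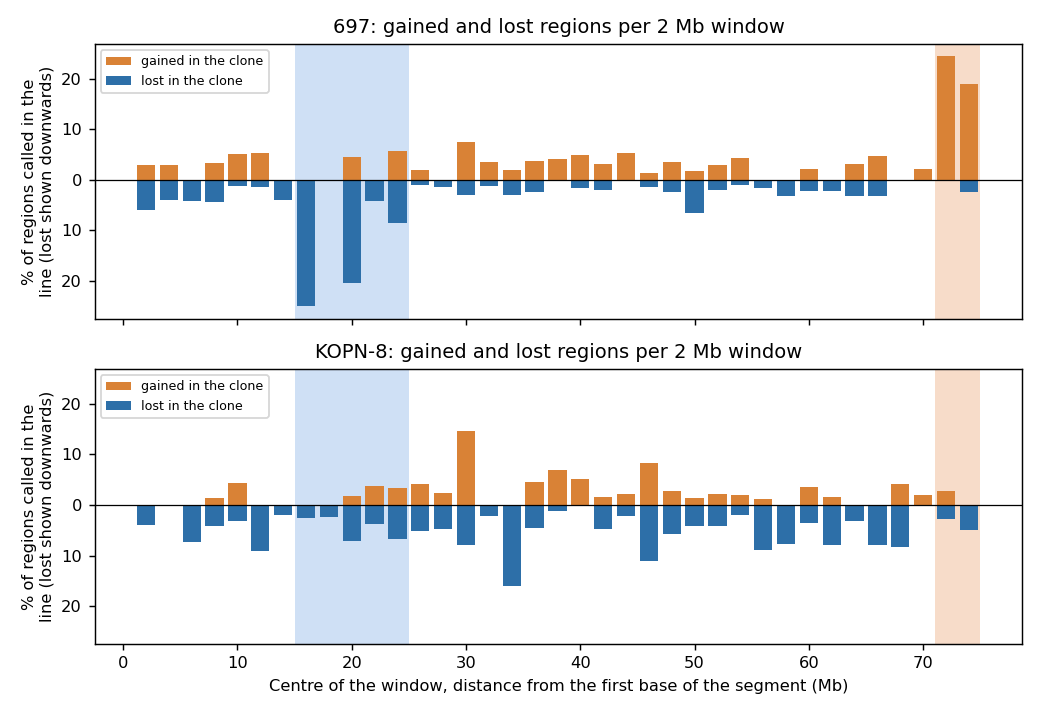
Gained (orange, upwards) and lost (blue, downwards) regions per 2 Mb window, as a percentage of the regions called in the line (y axis), against the distance from the start of the segment (x axis). In 697 the 2 deepest losses, 25.0% and 20.5%, lie in the blue band from 130 to 140 Mb, and the 2 highest gains, 24.4% and 19.0%, in the orange band at the end of the arm. KOPN-8 shows its deepest loss, 16.1%, and its highest gain, 14.7%, at other places.

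The stretch between 130 and 140 Mb held 293 members and was the place that led to the choice of the segment. In 697 it held 86 and 113 peaks in the controls against 47 and 65 in the clone, although clone list 2 was the longest of all 8. As a share of the list this was 0.156 ± 0.00759% (SD, n = 2) against 0.0798 ± 0.00734%, 0.512 times the control share (0.463 to 0.565 over the 4 pairs of libraries). Of 143 members called in 697 there, 21 (14.7%) were lost and 4 gained. The controls and the clone did not overlap in the count of peaks.

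Losses in the stretch were most frequent in 2 windows, with no loss in the window between them and fewer losses beyond. Between 130 and 132 Mb the 697 controls held 22 and 26 peaks and the clone 9 and 11, and 8 of 32 regions were lost. Between 132 and 134 Mb there were 7 and 8 peaks in the controls against 7 and 7 in the clone, with no region lost. Between 134 and 136 Mb the controls held 21 and 38 and the clone 6 and 9, and 9 of 44 regions were lost. Beyond 136 Mb the differences were smaller, with 11 and 12 against 6 and 10 peaks up to 138 Mb and 25 and 29 against 19 and 28 up to 140 Mb. Of the regions, 1 of 24 was lost between 136 and 138 Mb and 3 of 35 (8.57%) between 138 and 140 Mb. By percentage of regions lost, the windows at 130 and 134 Mb ranked 6 and 8 of the 1368 windows of the genome with at least 20 regions in 697, which is a description, since they were chosen for it.

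The window without losses, from 132 to 134 Mb, held only 8 regions called in 697, under the 20 needed for a rank. All 7 regions between 132 and 134 Mb that both 697 controls called were called in both clone libraries, and their median percentile in the controls was 89.2. The 17 such regions between 130 and 132 Mb had a median percentile of 40.9, and the 17 between 134 and 136 Mb one of 28.2. Of the latter 9 were lost, 5 were called in 1 clone library and 3 in both. Whether the strength of regions goes with their loss was not tested.

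Strong regions were also lost in the stretch. Of the 67 regions there that both 697 controls called, 33 had a smaller percentile under 50, and of these 16 (48.5%) were lost, against 7.82% of such regions over the genome. The other 34 lay at or over the 50th percentile, and of these 5 (14.7%) were lost, against 0.367% over the genome. Outside the stretch 2 of 575 such strong members were lost. The stretch was chosen for its lost regions, so these shares are a description. The 37 regions called in all 4 libraries had median folds of 7.73 and 7.95 in the controls against 7.41 and 8.01 in the clone. Over all regions of the genome called in all 4 libraries the medians were 7.14 and 7.59 against 7.70 and 8.44. The kept regions of the stretch stood above those medians in the controls and below them in the clone. Within the lists their median percentiles were 68.0 and 71.8 in the controls against 63.4 and 68.7 in the clone. The folds are the authors' values for each peak and describe each list by itself.

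The strongest lost region in the stretch was chr4:134241752-134242094, which was called in both 697 controls at folds of 10.7 and 10.0, at a smaller percentile of 83.3. It was called in all 4 KOPN-8 libraries, at 8.4 and 7.0 in the controls against 6.9 and 8.1 in the clone. The second, chr4:135827445-135828095, had folds of 8.0 and 9.2 in the 697 controls and was likewise called in all 4 KOPN-8 libraries, at 6.8, 6.0, 5.0 and 4.2. Both regions were thus open in the other line with and without the edit. The third, chr4:130367265-130367712, had folds of 7.1 and 7.2, and in KOPN-8 it was called in clone library 2 alone, at 3.7. The fourth, chr4:131257761-131258098, had folds of 9.1 and 6.2 and was called in all 4 KOPN-8 libraries at between 6.7 and 8.6. The fifth, chr4:137634384-137634654, had folds of 6.1 and 6.0 and was called in no KOPN-8 library. The other 16 lost regions were weaker, with smaller percentiles between 4.36 and 43.0. Of all 21, KOPN-8 called 11 (52.4%) in at least 1 library and 6 in all 4. Over all 1762 regions lost in 697 it called 30.1% in at least 1 library and 188 in all 4.

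**Figure D3:**
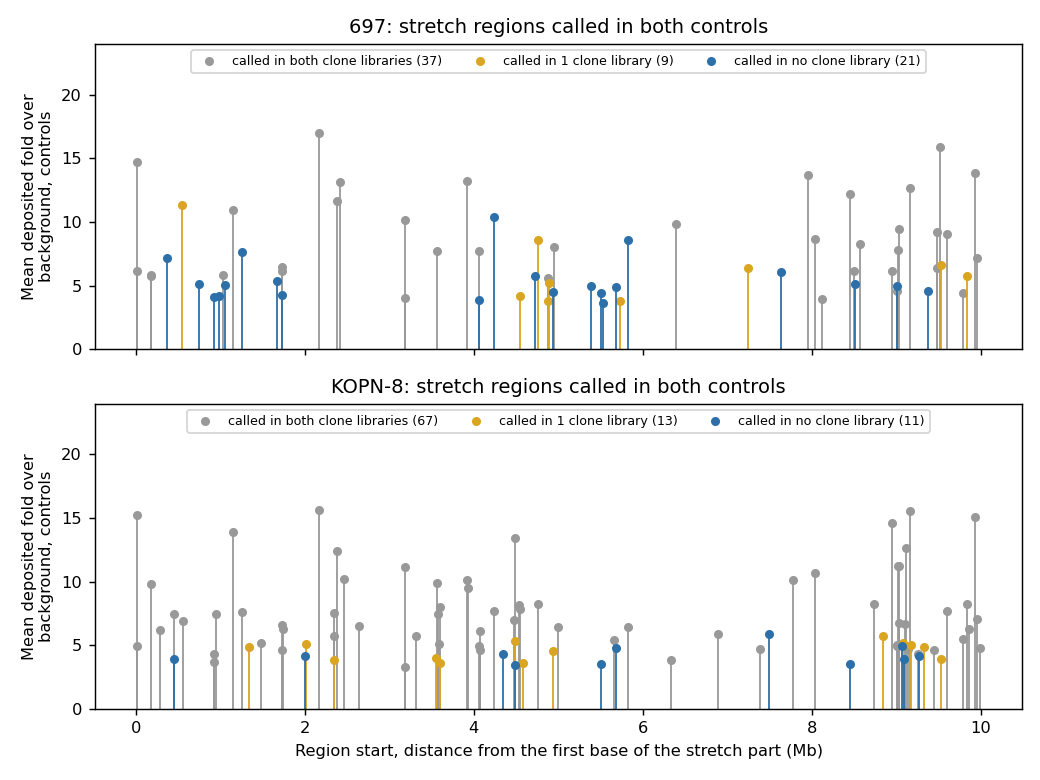
Regions of the stretch from 130 to 140 Mb that both controls of a line called, by distance from 130 Mb (x axis) and mean deposited fold over background in the 2 controls (y axis). Colours give the number of clone libraries that called the region: grey for both, yellow for 1 and blue for none (counts in brackets). In 697 17 of the 21 blue regions lie in the first 6 Mb, with grey regions of higher fold between them, while in KOPN-8 the 11 blue regions all stand below a mean fold of 6.

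A few regions of the stretch went the other way in 697. The 4 gained regions had folds between 3.93 and 5.09 in the clone and smaller percentiles between 20.6 and 22.0, so all were weak. Of these, chr4:134493109-134493756 was called at 4.3 and 4.9 in the 697 clone and at 11.0 to 14.4 in all 4 KOPN-8 libraries. The region chr4:139034105-139034686 was called in all 4 KOPN-8 libraries too, at 3.9 to 6.9.

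In KOPN-8 the same stretch held more peaks than in 697, and its clone lay closer to its controls. It had 152 and 122 peaks in the controls against 117 and 109 in the clone. Their shares were 0.204 ± 0.0169% (SD, n = 2) and 0.171 ± 0.00374%, a ratio of 0.84 (0.781 to 0.906 over pairs). Of 224 members called in the line there 11 (4.91%) were lost and 4 gained; the whole segment lost 4.66%. All 11 lost regions lay under the 50th percentile, and the strongest, chr4:137492358-137492807, had folds of 5.3 and 6.3 and a smaller percentile of 44.8. Of 36 stronger regions called in both controls all 36 were called in both clone libraries. Whether the lines differ in the size of the decrease was not tested, since the stretch was picked for it.

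Across lines, 5 members were lost in both clones, of 1219 that each line called at least once (0.41%). The background was 0.0742%, or 39 of 52547 regions. Of the 5, 2 lay in the stretch, at chr4:135507039-135507740 and chr4:135683211-135683568. The first had folds of 3.8 and 5.0 in the 697 controls and 3.4 and 3.7 in the KOPN-8 controls, and the second 4.2 and 5.6 and 4.6 and 5.0. The others, chr4:157254666-157255040, chr4:167456724-167457267 and chr4:174673811-174674085, had folds of at most 4.9. All 5 were weak, with a smallest percentile of at most 20.3 over the 4 lists, and with lists of equal length 1 member was lost in both. One member, chr4:144942804-144943039, was gained in both clones, at folds of 4.8 and 4.7 in 697 and 5.9 and 5.2 in KOPN-8. Another 2, chr4:125511686-125512046 and chr4:187823539-187823971, were gained in 697 while KOPN-8 lost them, and 0 went the reverse way.

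At the other end of the segment the 697 clone had more peaks than its controls. The end, from 186 Mb on, was singled out after the windows had been seen. It held 65 and 69 peaks in the controls against 111 and 131 in the clone, or 0.106 ± 0.0108% (SD, n = 2) and 0.174 ± 0.00347% of the lists. This made a ratio of clone to control of 1.64 (1.51 to 1.79 over pairs). The end was defined by full windows in which both 697 clone lists held more peaks than both control lists. That the groups did not overlap therefore follows from the definition. Of 149 members called there in 697, 31 (20.8%) were gained and 1 was lost. Over the segment without this end 76 of 2673 members (2.84%) were gained. Between 186 and 188 Mb 22 of 90 regions were gained and between 188 and 190 Mb 8 of 42, ranks 6 and 18 of 1368 windows. These ranks are a description, since the windows were picked for their higher clone counts. The window just before, from 184 to 186 Mb, held 61 and 84 peaks in the controls against 77 and 87 in the clone, with 2 of 93 regions gained.

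The gained regions of the end spanned chr4:186104850-190045623 and lay among regions that were already open. The strongest, chr4:187823539-187823971, was called at folds of 8.3 and 10.5 in the 697 clone and in neither 697 control. In KOPN-8 it was called in both controls, at 5.0 and 5.2, and in neither clone library, so the same region was gained in 1 line and lost in the other. The next, chr4:189581785-189582407, had folds of 7.4 and 7.6 in the 697 clone and was called in no KOPN-8 library. The region chr4:187058472-187058934 had folds of 8.1 and 6.7 in the 697 clone, and chr4:187508621-187508909 had 6.7 and 6.1. The latter was also called in all 4 KOPN-8 libraries, at between 6.1 and 7.6. Of the 31 gained regions 11 (35.5%) were called in at least 1 KOPN-8 library, against 45.9% of all regions gained in 697. Of the 31, 6 lay at or over the 50th percentile in both clone lists, and the median smaller percentile was 33.2, against 20.8 for all regions gained in 697.

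Regions of the end that were called in all 4 libraries of 697 stood higher in the clone lists too. The median fold of these 48 regions was 7.55 and 8.19 in the controls against 9.40 and 10.3 in the clone. Their median percentile within each list was 66.4 and 73.4 in the controls against 77.7 and 81.6 in the clone. Over all regions of the genome called in all 4 libraries the medians were higher in the clone too, as given for the stretch. The lists differ in length, so folds and ranks describe each list and are not a measured change. In KOPN-8 the 40 regions called in all 4 libraries had median folds of 8.94 and 8.46 in the controls against 7.51 and 7.29 in the clone.

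**Figure D4:**
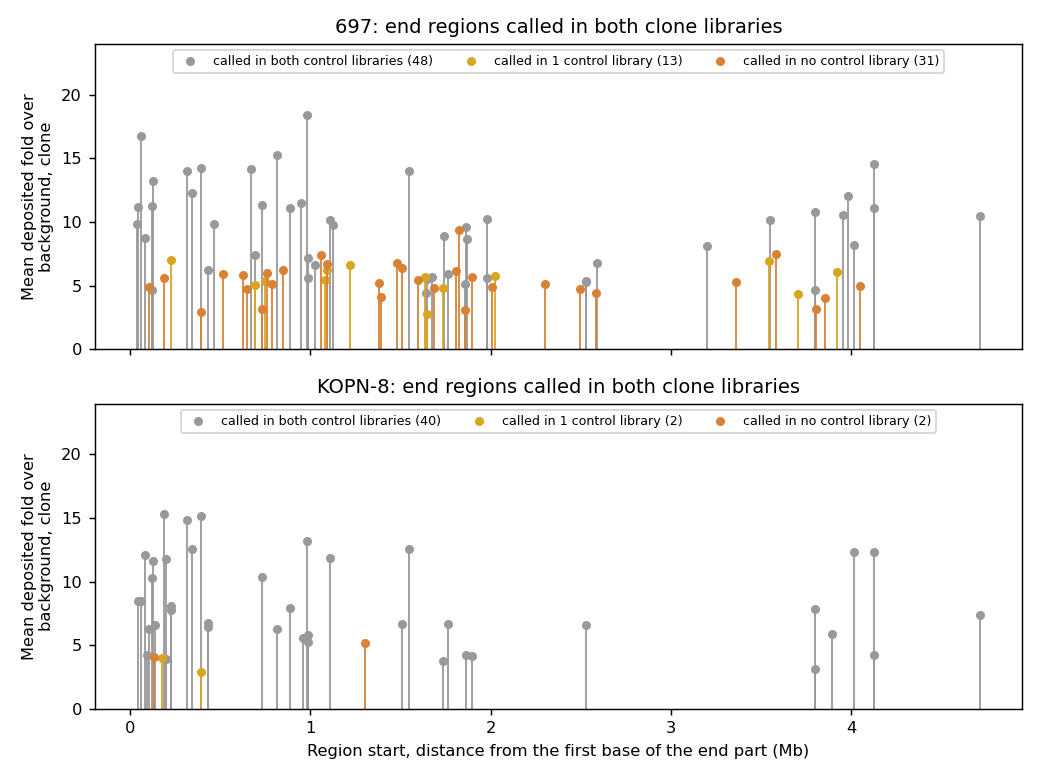
Regions from 186 Mb on that both clone libraries of a line called, by distance from 186 Mb (x axis) and mean deposited fold over background in the 2 clone libraries (y axis). Colours give the number of control libraries that called the region: grey for both, yellow for 1 and orange for none (counts in brackets). In 697 the 31 orange regions are spread between 48 grey ones, while KOPN-8 has 2 orange regions.

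KOPN-8 did not have more peaks at the end in its clone. There were 75 and 68 peaks in the controls against 56 and 62 in the clone, or 0.107 ± 0.000322% (SD, n = 2) and 0.0895 ± 0.00896%, a ratio of 0.839 (0.778 to 0.900 over pairs). Of 105 members called in the line 2 were gained and 3 lost. The end thus had a higher share in the clone in 697, where it was defined by higher clone counts, and a lower one in KOPN-8. Controls and clone did not overlap in either line. In KOPN-8 the clone's share was lower in 27 of the 37 full windows, with a median ratio of 0.896. A lower share was therefore not particular to the end. Along the arm both KOPN-8 clone libraries held fewer peaks than both controls in 12 of the 37 full windows, with no genome count beside it. The difference between the lines was not tested, because the end was picked after its values were seen.

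Most changed members outside the end of 697 stood alone. A run was defined as at least 2 lost, or 2 gained, regions in a row among the regions called in the line. In 697, 8 of the 80 lost members (10%) lay in 3 runs, against 12.5% of lost regions over the genome, and 16 of the 107 gained members (15.0%) lay in 8 runs, against 12.9%. In KOPN-8, 14 of the 102 lost members (13.7%) lay in 6 runs, against 13.9%, and 9 of the 59 gained members (15.3%) in 4 runs, against 11.5%. Within the stretch 697 had 2 runs of 2 lost regions, at chr4:131669070-131729994 and chr4:135507039-135532514. Losses there were therefore mostly interleaved with regions that were kept or called in fewer libraries. Of the 8 gained runs in 697, 7 lay in the end, and each held 2 regions, so 14 of the 31 regions gained there were in runs.

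The longest lost run of 697 in the segment lay outside the stretch. It held 4 regions over 31988 bp, chr4:165535473-165567460, and the longest over the genome held 10. The strongest of its regions, chr4:165566773-165567460, had folds of 6.6 and 7.8 in the controls and was called in no KOPN-8 library. The others had folds between 3.17 and 4.48. Further along, chr4:165581528-165581928 was lost as well, at 3.7 and 5.6 in the controls, and so was chr4:165646281-165646544, at 6.3 and 4.9. Between them, chr4:165638059-165638421 was called in all 4 libraries, at 7.0 and 8.0 in the controls against 6.0 and 8.6 in the clone. The window from 164 to 166 Mb lost 7 of its 107 regions (6.54%).

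In KOPN-8 the largest share of lost regions lay between 148 and 150 Mb. This window had 48 and 39 peaks in the controls against 33 and 35 in the clone, and 10 of 62 regions (16.1%) were lost and 0 gained. This was rank 9 of 1359 windows in KOPN-8 by percentage lost. The window held the 2 lost runs of 3 regions in the segment, at chr4:149856291-149889268 and chr4:149903933-149952888. Between the runs chr4:149903354-149903848 was called in all 4 libraries, at 8.3 and 7.8 in the controls against 6.0 and 5.8 in the clone. The flanking region chr4:150041524-150042670 had folds of 11.0 and 10.1 in the controls against 5.3 and 6.7 in the clone, while in 697 it was called at 12.8 to 13.6 in all 4 libraries. Within the second run chr4:149919906-149920395 was called in all 4 libraries of 697 at 8.8 to 10.5. Of the 6 regions in these runs 3 were called in all 4 libraries of 697, 1 in 2 of them and 2 in none.

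Gains in KOPN-8 were most frequent between 144 and 146 Mb, where 11 of 75 regions (14.7%) were gained and 6 lost. This window had 59 and 52 peaks in the controls against 60 and 60 in the clone, so regions were exchanged with little change in their number. The gained run chr4:144829026-144943039 held 3 regions. One was chr4:144832779-144833549, at folds of 7.7 and 6.4 in the clone, and the last was the member gained in both lines. The lowest share ratio of KOPN-8, 0.61, came from 39 and 28 peaks in the controls against 20 and 20 in the clone between 180 and 182 Mb.

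Outside the stretch the strongest lost region in 697 was chr4:121439008-121439533, at folds of 9.7 and 9.4, and KOPN-8 did not call it. Of the 5 strongest such losses, KOPN-8 called 2, at chr4:129495834-129496159 and chr4:171774619-171774924. The strongest gain in 697 outside the end was chr4:140452032-140452318, at 6.8 and 6.5. In KOPN-8 the strongest losses were chr4:171010867-171011597, at 7.3 and 7.7, chr4:150686547-150687145, at 6.9 and 7.7, and chr4:129607183-129607617, at 7.1 and 6.4. None of these 3 was called in 697. The next, chr4:148715911-148716402 and chr4:149033220-149033797, had folds of 6.2 to 6.6 and were called in 3 and in all 4 libraries of 697. The strongest gain in KOPN-8 was chr4:185726585-185727059, at 8.8 and 9.6, which 697 called in all 4 libraries at 3.4 to 6.4. The next were chr4:162572005-162572355, at 8.4 and 8.1, which 697 did not call, and chr4:170136865-170137311, at 8.0 and 8.6, which 697 called in all 4. The last, chr4:154239921-154240205, had folds of 5.9 and 6.2.

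Regions that changed were called in the other line to different degrees. Of the 107 gained members 29 (27.1%) were called in at least 1 KOPN-8 library, against 45.9% of all regions gained in 697, and of the 80 lost members 24 (30.0%), against 30.1%. In KOPN-8, 30 of 59 gained (50.8%) and 47 of 102 lost members (46.1%) were called in 697, against 41.2% and 44.6%.

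Other members were open in 1 line alone. There were 188 members (4.96%) called in all 4 libraries of 697 and in none of KOPN-8, against 5.85% of all regions. The reverse held for 192 (5.06%), against 7.3%. The strongest of 697 was chr4:148938682-148939292, with folds of 15.5 and 14.9 in the controls against 13.7 and 15.8 in the clone. It was followed by chr4:146653984-146654737, chr4:171413041-171413532, chr4:159689618-159690959 and chr4:183201663-183202267, with folds of 11.2 to 16.0. The strongest of KOPN-8 was chr4:171123743-171124481, at 16.7 and 16.2 in the controls against 14.7 and 13.6 in the clone. Next came chr4:172255584-172256300, chr4:124246285-124246841, chr4:186201681-186202342 and chr4:170678521-170679365, at 10.9 to 13.9. In the stretch 12 members (4.10%) were specific to 697 and 23 (7.85%) to KOPN-8, against the same 5.85% and 7.3% of all regions. From 186 Mb on there were 14 (7.22%) and 4 (2.06%).

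The 5 members with the highest smallest percentile over all 8 lists were chosen by that rank, so their high folds are a description of the choice. The first, chr4:180910945-180911667, had folds of 24.5 and 25.5 in the controls of 697 against 23.5 and 24.2 in its clone. In KOPN-8 these were 23.0 and 22.9 against 19.9 and 22.5. The other 4 were chr4:155471030-155471997, chr4:123653289-123654271, chr4:141444950-141445893 and chr4:148538084-148539275, and their folds lay between 19.2 and 22.4. None of the 5 lay in the stretch or in the end. In the stretch the strongest kept regions included chr4:132169497-132169934, at 16.5 and 17.5 in the 697 controls against 15.6 and 16.5 in the clone, and chr4:130014220-130015197, at 15.1 and 14.3 and at 15.0 and 15.6. One strong region, chr4:130544375-130544875, was called at 11.3 in both controls and in clone library 2 alone, at 6.0. These 3 were chosen after their values were seen.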

How the data were processed

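ATAC-seq was measured in 8 libraries, 2 per group. Per the submitters' processing notes, Bowtie2, MACS2 and hg19 were used, and no version or setting is given there. The lists have no header, and the deposited value of each peak was read from its range as a ratio, the fold over background given by the authors, and was used only to rank or describe peaks within a list. The lists were merged over at least 1 bp, and members start between 115 and 191.2 Mb of chromosome 4. Percentiles rank a peak by fold within its list, and the smaller percentile is the lower of those of the 2 lists that call a region. The end starts with the last unbroken set of full windows in which both 697 clone lists held more peaks than both control lists, a rule made after the windows were seen. It runs to the end of the segment and so takes in the partial window from 190 Mb, where the 697 controls held 6 and 7 peaks against 7 and 12 for the clone. Windows were ranked where they held at least 20 regions of the line. Members, lists and tests were chosen with earlier results of these data known. Named are all changes shared by both lines, every run of at least 3 lost regions, lost regions of the stretch, and the 5 strongest members per line and direction, per line alone and in all 8 lists. The shares of the lines were compared by an exact permutation test. No annotation of hg19 was used, so planned gene lists were not used and no sequence is printed. Alternatives were the strongest 50% of each list, lists of equal length, 50% cover, each line merged alone, a replicate block and each library left out. Scripts were tested on simulated data (Python 3.11.15, pandas 2.3.3, numpy 2.4.6, scipy 1.17.1).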

Additional observations from a re-analysis of the deposited data

Results flagged for a closer look

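The lines went opposite ways at the end and in the windows from 166 to 168 and 168 to 170 Mb. There every clone library of 697 held a larger share of its list than both controls. Every clone library of KOPN-8 held a smaller share than both of its controls. How many windows of the genome do so was not counted. In 697 the end was defined by higher clone counts, and in KOPN-8 the clone's share was lower in 27 of the 37 full windows. From 186 Mb on, the ratio of clone to control share was 1.64 in 697 and 0.839 in KOPN-8. Within it, the ratios were 1.53 and 0.855 between 186 and 188 Mb and 2.23 and 0.744 between 188 and 190 Mb. Between 166 and 168 Mb they were 1.09 and 0.883, and between 168 and 170 Mb 1.07 and 0.934. The KOPN-8 value of 0.744 rests on few peaks, 12 and 10 for the controls against 6 and 10 for the clone. The difference between the lines was not tested in any of these places.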

How the results depend on the processing

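No log2 share ratio changed its sign under any alternative run. In 697 the balance of gained and lost members turned with lists of equal length, from 107 gained and 80 lost to 74 and 90. In KOPN-8 lost members outnumbered gained ones in every alternative that kept all libraries. Leaving out a control loosened lost more than gained, and leaving out a clone library did the reverse. The balance without 1 library therefore follows in part from the definition and decides nothing. In 697 it was 139 gained and 433 lost without control 1 and 226 and 265 without control 2. In KOPN-8, 59 gained and 102 lost became 221 and 153 without clone library 1 and 226 and 168 without clone library 2. With the strongest 50% of each list the counts fell to 35 gained and 18 lost members in 697, 8 lost in its stretch, 8 gained at its end and 1 lost run. In KOPN-8 they fell to 28 gained, 56 lost and 4 lost in the stretch, line-specific members to 122 and 106, and members lost in both lines to 0. The log2 share ratios of 697 became -0.69 in the stretch and 0.48 at the end, from -0.97 and 0.71. With lists of equal length 697 had 9 lost runs and a segment ratio of -0.13 from -0.04, while KOPN-8 had 4 lost regions in the stretch and an end ratio of -0.45 from -0.25. Members lost in both lines numbered 1 there and 3 with 50% cover, which also gave 10 lost runs in KOPN-8. Runs counted over regions called in both controls numbered 7 in 697.

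Leaving out 1 library loosens the definition of lost and gained, so counts rose. In 697 the range was 139 to 563 gained, 103 to 433 lost, 22 to 63 lost in the stretch, 34 to 62 gained at the end, 5 to 64 lost runs and 195 to 248 line-specific members. In KOPN-8 it was 86 to 226 gained, 153 to 420 lost, 15 to 53 in the stretch, 13 to 71 runs and 195 to 216. Lost members of 697 numbered 433 without control 1, 265 without control 2 and 164 without clone library 2, and those of the stretch 63 and 35 without control 1 and 2. Gained members of 697 numbered 226 without control 2, 563 without clone library 1, which also gave 62 at the end, and 309 without clone library 2. In KOPN-8 lost members numbered 248, 420 and 168 without control 1, control 2 and clone library 2, with 35, 53 and 20 in the stretch, and gained members 116, 221 and 226 without control 1, clone library 1 and clone library 2. Log2 share ratios in 697 ranged from -1.06 to -0.87 in the stretch, 0.61 to 0.82 at the end and -0.08 to -0.01 over the segment. In KOPN-8 they ranged from -0.33 to -0.16, -0.36 to -0.15 and -0.15 to -0.06.

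With the replicate block the ratios were -0.04, -0.97 and 0.72 in 697 and -0.10, -0.25 and -0.26 in KOPN-8 for segment, stretch and end. The replicate numbers are not shown to pair the libraries: call differences between replicates correlated across regions at -0.0602 in 697 and -0.0128 in KOPN-8. Read depth is unknown, so a missing call is not a measured absence.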
